A study of Mus musculus with 12 samples.

Results

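Gene deserts are long stretches of a chromosome with few or no protein-coding genes, often between genes for neuronal adhesion molecules or developmental regulators. The data come from neural progenitor cells cultured as neurospheres from the ganglionic eminence of E15.5 mouse embryos (strain C57BL/6), in which interneurons of the cortex are born. The genotypes are WT and Nestin-KO, and the study's title names the histone methyltransferase SETDB1; the labels give neither the deleted allele nor the driver line, and no measurement here checks the level of Setdb1. For the repressive mark H3K9me3 the table of the whole series lists 50654 regions built from windows of 1 kb, from 3 KO and 3 WT animals. The members described here are the 7846 of those regions that the authors annotated as Genedeserts on chromosomes 1 to 19, of 47949 listed regions on these chromosomes. The H3K9me3 libraries of KO came from males only, those of WT from 2 females and 1 male, and no animal served for both marks.

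SETDB1 is one of the enzymes that write H3K9me3, the trimethyl form of lysine 9 on histone H3, which marks compacted and silent chromatin, above all at copies of transposable elements. H3K27ac, an acetyl mark on lysine 27 of the same histone, is found at active promoters and enhancers. Where a silenced stretch loses H3K9me3, an H3K27ac peak at the same place is a common sign of renewed activity, and so the peak lists of 3 KO and 3 WT libraries for H3K27ac were read over the same regions.

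The label was checked against the reference annotation (RefSeq, GRCm38.p6). The median distance of a desert region from the nearest protein-coding gene was 431 kb (quartiles 195 and 783 kb, maximum 2217 kb), against 27.4 kb for the regions annotated as other intergenic. The class was not free of annotated genes, since 1059 regions (13.5%) overlapped a gene of any kind and 218 (2.78%) a protein-coding gene. In the immunoglobulin loci Igh and Igk, where the reference holds variable gene segments, lay 249 regions of the class. The neural cell type was checked from H3K27ac peaks within 1 kb of marker genes. Of 8 progenitor markers 3 to 8 had a peak in each library, with Nes, Fabp7 and Pax6 in all 6 libraries. Of the ganglionic eminence markers, Dlx1 had a peak in 2 libraries and Dlx2, Dlx5, Dlx6, Gsx2 and Nkx2-1 in none. Cortical excitatory and muscle markers had none, oligodendrocyte markers 0 to 3 of 3, microglial markers 0 to 2 of 4 (P2ry12 and Csf1r, with Aif1 and Cx3cr1 in none), endothelial markers 1 of 4 in every library (Pecam1) and blood markers 0 or 1 of 3. The part of these other cell types in the results was not tested. In bulk cultures, fewer cells with the mark and less of the mark per cell cannot be told apart.

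Few desert regions hold an annotated transcription start, and those that do give the only sequences that can be shown here. Of 31396 autosomal promoter windows in RefSeq (GRCm38.p6; each 300 bases, from 250 before to 50 after a start), 27 lay wholly inside 25 desert regions, 25 of the windows in lower regions and 2 in higher ones. These 4 sequences are printed because they carry a result below, with every CG, the site of DNA methylation in mammals, in capitals. Gm46754 (chr2:94806013-94806312, plus strand) and LOC115486431 (chr4:39387630-39387929, plus strand) lie on different chromosomes and were identical at 300 of 300 bases, and both sit in lower regions with H3K27ac peaks in KO libraries. Gm41479 (chr16:80294655-80294954, plus strand) sits in a lower region and Gm46244 (chr1:113145271-113145570, plus strand) in a higher one, although the windows were 76.6% identical over 290 aligned columns.
Gm46754: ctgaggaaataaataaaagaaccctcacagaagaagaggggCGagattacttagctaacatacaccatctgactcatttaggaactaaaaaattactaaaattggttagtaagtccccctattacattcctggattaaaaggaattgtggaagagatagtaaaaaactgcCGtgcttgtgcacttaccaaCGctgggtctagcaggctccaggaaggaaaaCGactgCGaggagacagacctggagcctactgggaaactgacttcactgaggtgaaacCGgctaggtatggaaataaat
LOC115486431: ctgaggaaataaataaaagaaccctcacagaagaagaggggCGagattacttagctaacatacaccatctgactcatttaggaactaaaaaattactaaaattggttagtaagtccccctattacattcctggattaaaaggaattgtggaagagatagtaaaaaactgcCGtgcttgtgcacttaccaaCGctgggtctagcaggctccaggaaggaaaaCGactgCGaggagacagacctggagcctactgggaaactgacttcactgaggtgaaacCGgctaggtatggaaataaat
Gm41479: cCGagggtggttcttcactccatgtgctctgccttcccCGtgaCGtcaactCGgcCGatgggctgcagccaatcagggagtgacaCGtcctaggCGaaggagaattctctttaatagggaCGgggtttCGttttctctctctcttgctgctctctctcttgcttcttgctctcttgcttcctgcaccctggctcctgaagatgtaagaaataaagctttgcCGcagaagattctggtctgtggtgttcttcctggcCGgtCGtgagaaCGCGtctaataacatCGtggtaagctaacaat
Gm46244: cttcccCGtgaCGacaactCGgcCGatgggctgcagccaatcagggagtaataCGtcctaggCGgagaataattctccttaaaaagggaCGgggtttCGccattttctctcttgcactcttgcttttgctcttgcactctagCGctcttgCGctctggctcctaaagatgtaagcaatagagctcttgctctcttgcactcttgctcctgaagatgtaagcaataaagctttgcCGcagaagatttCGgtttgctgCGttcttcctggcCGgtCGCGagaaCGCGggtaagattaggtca
At least 1 CG was present in 23 of the 27 windows and in 94.8% of all autosomal windows, with a median of 3 against 7 per window, and the median GC content was 47% against 53%. The first pair holds 6 CG each, Gm41479 holds 15 and Gm46244 holds 18. These windows were chosen after their values were seen, and no source used here says how reads from near-identical copies were placed.

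On the authors' scaling most desert regions were lower in KO, and a large minority were higher. The authors' deposited table lists 4897 regions covering 8.16 Mb as lower and 2947 regions covering 4.10 Mb as higher at an adjusted p of 0.05, with 2 more lower regions above that threshold. These are 62.4% and 37.6% of the desert regions, against 71.1% lower and 28.9% higher over the whole table. Nearly every listed region passes that threshold, and the authors' p-values match a G-test on summed values (largest log10 difference 0.00674 over 38105 regions), which leaves out the spread between animals. The same kind of test on values rescaled to the median ratio over all listed regions gave 1875 lower and 3130 higher desert regions, so which direction is more frequent depends on the scaling. Gene body regions were lower at 82.8% and other intergenic regions at 69.2% in the authors' deposited table. The median log2 fold change of the desert regions was -0.75 in the authors' deposited table, with quartiles of -1.12 and 0.79 and a range from -3.03 to 2.40, so that the quartiles lie on either side of 0.

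The values within each genotype show where the spread lies. The table joins 3 normalised values per genotype in 1 cell without naming the animal, so each is named by its place in the cell, as in the first KO value. At the lower regions the medians of the 3 KO values were 20.4, 26.2 and 42.9 normalised reads per region, and those of the 3 WT values were 60.3, 62.3 and 55.8. The third KO value was thus the closest to WT, and it was the highest KO value at 78.4% of these regions. The median coefficient of variation was 47.2% among KO values and 14.1% among WT values. At the higher regions the KO medians were 45.9, 44.0 and 57.2 and the WT medians 23.1, 28.7 and 29.7, and the coefficients of variation were 22.6% and 30.4%. Per kb, the lower regions had a median of 43.3 normalised reads in WT and 21.1 in KO, and the higher regions 21.4 in WT and 40.0 in KO. The level of the higher regions in KO was near that of the lower regions in WT. The groups were split by the direction of these same values, so this likeness is no result of its own. The part of the listing of regions in it was not tested. The authors' deposited table also gives an enrichment from the same libraries, a ratio whose denominator no source used here names. Its medians were 1.67 in WT and 0.89 in KO at lower regions, and 0.85 and 1.83 at higher regions.

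**Figure D1:**
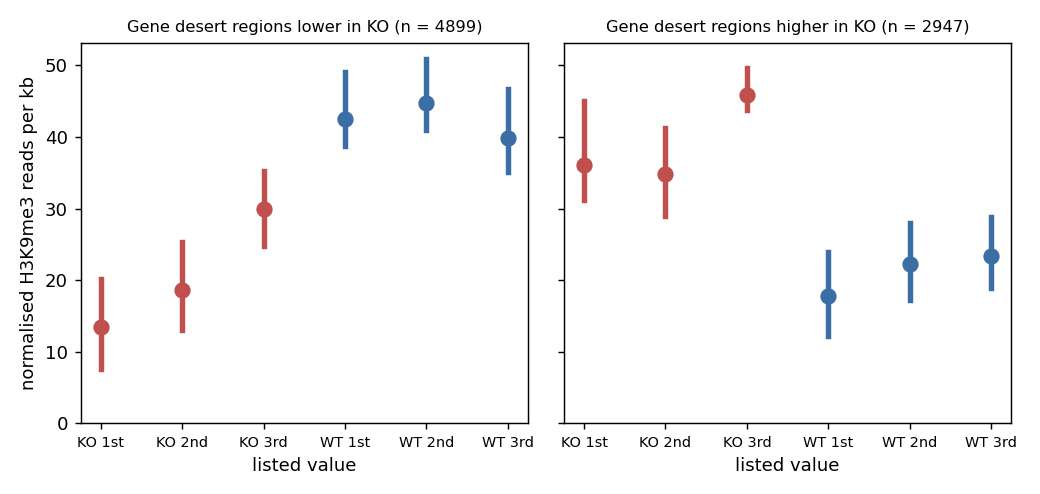
Normalised H3K9me3 reads per kb (vertical axis) for the 6 listed values, with KO in red and WT in blue; points are medians and bars the quartiles over the 4899 lower regions (left) and the 2947 higher regions (right). The KO medians lie below the WT medians on the left and above them on the right, and the third KO value is the highest of the KO values in both.

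Depth differed between libraries. Values were whole multiples of 1 step per listed value (100% within 0.1 reads), so reads could be recovered, and the desert regions held 116900, 756500 and 534866 reads for the 3 KO values and 256794, 611622 and 650497 for the 3 WT values. The first KO value had a median of 12 reads per desert region, the other 5 between 26 and 77, and 276 lower regions had 0 reads at the first KO value and at no other. The desert regions held 1.06%, 2.08% and 3.92% of the KO reads in all listed regions, and 1.61%, 3.12% and 2.29% of the WT reads.

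Against the spread between animals fewer regions passed. With limma on log2(value + 1), fitted over the whole table with Benjamini-Hochberg adjustment, 771 desert regions (9.83%) fell and 153 (1.95%) rose at an adjusted p of 0.05, against 14.9% and 1.24% of all listed regions. The smallest adjusted p of the fit was 0.0471, shared by 362 desert regions, so these calls lie close to the threshold. With any listed value but the third KO value left out, limma called 0 regions in either direction, with 1403 to 2398 lower and 684 to 1173 higher at an unadjusted p of 0.05. Without the third KO value it called 4100 lower and 561 higher. With limma-voom on the recovered reads 3707 desert regions (47.2%) were lower and 1398 (17.8%) higher, against 58% and 14.1% of all listed regions, and without the second KO value 987 and 1892. The 3 KO values did not overlap the 3 WT values at 3809 lower regions (48.5%) and 2141 higher regions (27.3%), against 54.2% and 20.2% of the whole table. The median log2 fold change on this scale was -0.81 for desert regions and -1.05 for all autosomal regions. The zero point depends on the authors' scaling: under median-ratio scaling the desert median moved to 0.0006 and that of the whole table from -1.04 to -0.23, and limma called 187 desert regions lower and 2887 higher.

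Among the regions that fell and whose KO and WT values did not overlap, the 8 with the smallest limma p lay on 6 chromosomes. The separation of the genotypes at them follows from this choice. The first, on chromosome 15 (50595801 to 50599000, 55.8 kb from Trps1, a zinc finger repressor), had 38.2, 34.9 and 39.5 normalised reads in KO and 145, 124 and 141 in WT. Its log2 fold change was -1.84 ± 0.26 (SE, limma adjusted p = 0.0471). The second, on chromosome 13 (78418501 to 78421500), lies 220 kb from Nr2f1, a transcription factor of interneuron and cortical development. It had 25.5, 25.3 and 37.0 in KO and 177, 106 and 130 in WT, a log2 fold change of -2.19 ± 0.32 (SE; limma adjusted p = 0.0471). A region inside Lsamp, an adhesion molecule of the limbic system (chromosome 16, 40716401 to 40719400), had 28.0, 36.6 and 53.8 in KO and 137, 132 and 139 in WT. Its WT values lay within a few reads of each other while the KO values spread widely. The other 5 leading regions, nearest to Akr1e1, D3Ertd751e, Gm46911, Actl7b and Csmd3, had log2 fold changes from -1.83 to -1.36.

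The 8 leading higher regions, chosen by the same rule, lay on 4 chromosomes. Of these, 4 lay within Igh on chromosome 12, and the one with the smallest limma p (114493101 to 114496000) had 117, 118 and 171 normalised reads in KO and 46.1, 45.9 and 35.5 in WT, a log2 fold change of 1.63 ± 0.29 (SE; limma adjusted p = 0.0471). On chromosome 1 a region 1047 kb from Dsel (112911601 to 112913300) had 81.5, 83.3 and 83.2 in KO and 31.9, 33.6 and 32.6 in WT. The 3 animals of each genotype nearly coincided there, and the log2 fold change was 1.31 ± 0.28 (SE; limma adjusted p = 0.0471). A region 151 kb from Dpp10, which encodes an auxiliary subunit of potassium channels (chromosome 1, 124996501 to 124998600), had 102, 82.4 and 92.5 in KO and 23.1, 40.2 and 37.0 in WT. The remaining 2 were nearest to Ptprd (chromosome 4, log2 fold change 1.79) and Luzp2 (chromosome 7, 1.31).

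**Figure D2:**
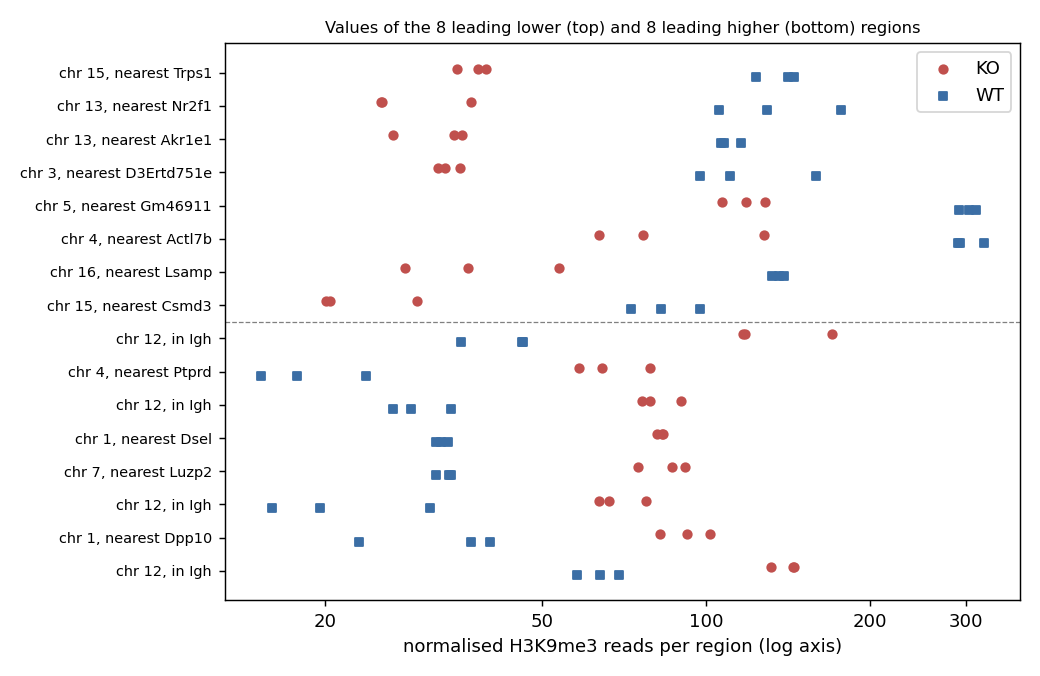
Normalised H3K9me3 reads per region on a log axis for the 8 lower (above the dashed line) and 8 higher regions with the smallest limma p among those whose values do not overlap; circles are the 3 KO values and squares the 3 WT values. WT lies to the right of KO in the upper 8 and to the left in the lower 8, as this choice requires, and 4 of the lower 8 are in Igh.

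Higher desert regions were grouped in a few blocks, while lower ones were spread over every autosome. Chromosome 1 held 1188 higher and 401 lower desert regions, which are 40.3% of all higher and 8.21% of all lower ones. Chromosomes 7 (257 higher, 124 lower) and 17 (214 higher, 122 lower) also had more higher than lower regions. Chromosome 19 had 78 lower and 0 higher, chromosome 10 had 239 and 7, and chromosome 16 had 238 and 9. In windows of 5 Mb, 8 of the 107 windows with a higher region held at least 50% of the higher regions, against 55 of the 237 windows with a lower region for the lower ones. On chromosome 1 from 100 to 125 Mb, 1014 regions were higher and 119 lower, and the rest of the chromosome had 174 higher and 282 lower. Outside that block, whose limits were set after the values were seen, the desert regions of all autosomes were lower at 71.2%.

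**Figure D3:**
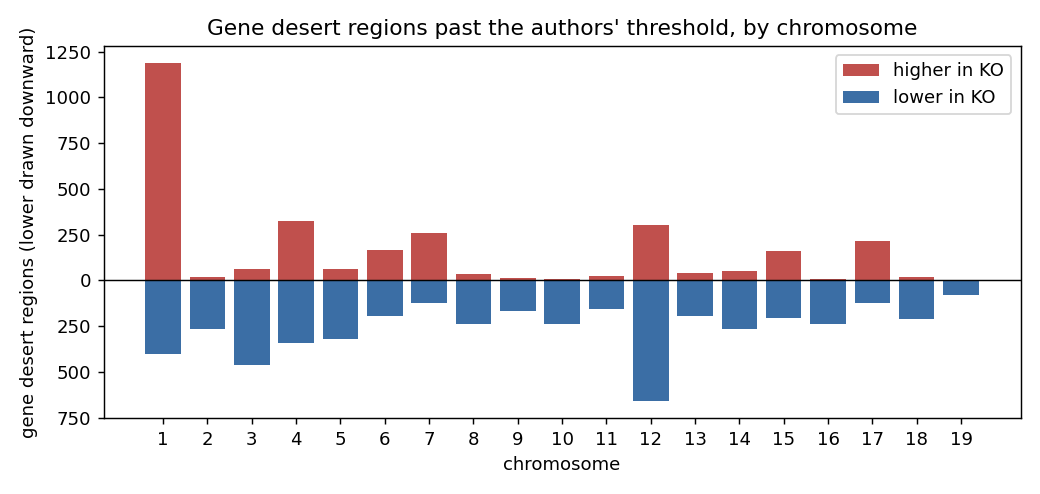
Number of gene desert regions per chromosome past the authors' threshold, with regions higher in KO drawn upward in red and regions lower in KO drawn downward in blue. Chromosome 1 stands out with 1188 higher regions, chromosome 12 has the most lower regions (661), and chromosome 19 has no higher region.

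Neighbouring desert regions mostly shared a direction. Of 6503 neighbouring pairs less than 100 kb apart, 5636 (86.7%) had the same direction. Joined at that distance the regions formed 1343 stretches, 439 of them of 1 region. Among the 119 stretches of at least 10 regions, at least 90% of the regions were lower in 54 and at least 90% were higher in 11, and 54 lay between. Neighbours come from the same libraries and may come from 1 broader domain cut into pieces by the window calls, so they are not independent.

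The 5 stretches with the most regions were 4 higher and 1 lower. On chromosome 1, the stretch from 112169501 to 115670300 had 360 higher and 34 lower regions, between Dsel (nearest to 160) and Cntnap5a (nearest to 234). Its KO medians were 49.7, 48.4 and 58.8 normalised reads and its WT medians 26.6, 31.2 and 34.1. Limma called 25 of its 394 regions higher and 1 lower, against 1.95% and 9.83% of all desert regions. The stretch from 100498201 to 103707600, between Cntnap5b and Cdh20, had 216 higher and 33 lower. The stretch from 121615401 to 123279700, between Ddx18 and Dpp10, had 184 higher and 7 lower. Limma called 4 of 250 regions higher in the former and 10 of 191 in the latter, and 0 lower in each. The share in the former was below the 1.95% of all desert regions. On chromosome 4 (121635701 to 122678800, around Gm10573) 162 were higher and 8 lower, but limma called 0 in either direction (limma-voom 50 higher and 5 lower). There the first KO value, not the third, was the highest KO value, at 73.5% of regions.

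The largest lower stretch lies on chromosome 12 (21429801 to 23767700), a stretch of predicted genes around Gm46305, Gm10476, Gm38538 and Gm40862, with 346 lower and 25 higher regions. It holds the longest desert region, of 19700 bp (22865701 to 22885400), with 443, 536 and 608 normalised reads in KO and 1127, 1280 and 1281 in WT, a log2 fold change of -1.22 ± 0.23 (SE; limma adjusted p = 0.0471). The highest KO value there lay far below the lowest WT value. Over the whole stretch the KO medians were 53.5, 66.3 and 58.8 and the WT medians 83.3, 93.5 and 83.4, with a median log2 fold change of -0.65 that became 0.17 under median-ratio scaling. Limma called 25 of its 371 regions lower, a smaller share than the 9.83% of all desert regions and the 14.9% of all listed regions. Some promoter windows in this stretch were near copies of each other: those of Gm40856 and Gm40857 were 95.7% identical, and those of Gm46305, Gm46340 and LOC115488023 were 96.1% to 96.9% identical, whereas the closest windows of Gm40862 and Gm38538 were 79.7% identical.

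A lower block with a larger fold change lay on chromosome 3 from 20 to 25 Mb, where 110 regions were lower and 1 higher. The median log2 fold change was -1.43, and limma called 39 of the 111 regions lower, against 9.83% of all desert regions. This block was singled out after its values were seen. The median there was 42.7 normalised reads per kb in WT and 17.9 in KO. Of these, 69 were nearest to Tbl1xr1, a subunit of corepressor complexes (69 lower, 0 higher, 27 called by limma; median -1.57, and -0.75 under median-ratio scaling). The distance of these regions from Tbl1xr1 ran from 18.5 to 826 kb.

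The genes that flank the deserts were grouped by 4 lists, chosen with earlier results of these data known. A flanking gene is the nearest protein-coding gene by distance and no more. Of 44 transcription factors of brain development, 18 were nearest to a desert region, and 149 of their 151 regions were lower (98.7%, against 62.4% of all desert regions) and 2 higher. Limma called 30 lower (19.9%, against 9.83%) and 0 higher and limma-voom 128 and 0, with a median log2 fold change of -1.42 against -0.81 over all desert regions. Under median-ratio scaling the median was -0.61 with 141 regions below 0. Sall3, a zinc finger factor, had 17 lower regions, with KO medians of 12.7, 14.0 and 46.2 and WT medians of 62.0, 76.3 and 68.2. Nr2f1 had 15 lower regions (KO 10.2, 14.4 and 37.0; WT 46.1, 47.6 and 45.0). Pou3f2, a POU-domain factor of neural progenitors, had 18 and Zfhx4, a large zinc finger homeobox factor, had 16, with none higher at either. In all 4 genes the third KO value lay nearest to WT, as over all lower desert regions, where it was the highest KO value at 78.4%.

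Adhesion genes flanked both kinds of region. Of 41 leucine-rich repeat and immunoglobulin adhesion genes 19 were nearest to a desert region, with 280 lower (36.9%) and 477 higher regions and a median of 0.73, and limma called 5.27% lower and 3.29% higher. Cntnap5a (266 higher, 12 lower) and Cntnap5b (156 higher, 23 lower), members of the contactin-associated family, hold most of the higher ones, and Cntnap2 had 37 higher and 6 lower. Lrrc4c, a netrin-G ligand, had 33 lower and 11 higher. Of 22 cadherins and protocadherins 16 were nearest, with 302 lower (53.0%) and 268 higher regions, and the limma shares of 7.72% and 2.28% were near the 9.83% and 1.95% of all desert regions. Their median of -0.65 became 0.17 under median-ratio scaling. Cdh20 (96 higher, 20 lower), Cdh9 (47 and 25), Cdh18 (39 and 6) and Cdh6 (28 and 14) were mostly flanked by higher regions. Of 26 channels and receptors 10 were nearest, with 95 lower and 58 higher regions, and their lower share of 62.1% was that of the desert regions as a whole (limma 7.19% lower and 3.27% higher). Grik2, a kainate receptor subunit, had 28 lower and 0 higher and Kcnd2, a potassium channel, 16 and 0, whereas Adcyap1, which encodes a neuropeptide, had 32 higher and 14 lower and Nrg3, a ligand of the receptor ErbB4, 18 higher and 9 lower.

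Inside the immunoglobulin loci the desert regions were mostly higher, and so were the listed regions of all classes there. Over all classes Igh held 300 higher and 28 lower regions, and Igk 252 and 29. Igh (chromosome 12, 113258768 to 116009954) held 157 desert regions, 136 higher and 21 lower (limma 23 and 1, limma-voom 92 and 14). Its KO medians were 66.2, 51.9 and 66.4 normalised reads and its WT medians 46.1, 39.4 and 43.5. Igk (chromosome 6, 67555636 to 70726754) held 92, 86 higher and 6 lower (limma 10 and 0, limma-voom 56 and 2), with KO medians of 52.2, 50.8 and 60.9 and WT medians of 26.6, 33.2 and 33.4. Over all desert regions limma called 1.95% higher and 9.83% lower, and limma-voom 17.8% and 47.2%. Over all listed regions these shares were 1.24%, 14.9%, 14.1% and 58%. All 27 regions that overlapped a V segment at either locus were higher. The 4 longest higher desert regions, of 5200 to 6600 bp, were all in Igh, and the longest had 270, 290 and 305 in KO and 140, 133 and 162 in WT. These loci were singled out after their values were seen. They encode antibody chains and are rearranged in B cells. Of 3 blood markers, Ptprc had an H3K27ac peak in 2 libraries and Hba-a1 and Hbb-bs in none. Without both loci 4870 desert regions were lower and 2725 higher in the authors' deposited table, and limma called 770 and 120.

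Protein-coding genes that hold desert regions differed from one another. Dpp10 held 58, 57 of them higher. Lsamp held 13 and Zfhx3, a homeobox factor, held 10, all lower. Snrpn, in an imprinted cluster on chromosome 7, held 13, 12 of them higher. Gm40862 held 38, with 32 lower and 6 higher. Gm40864 held 15, Gm10476 12 and Gm38538 10, all lower. Klf12, Naaladl2 and Gm9295 held 5 each, all lower, and no other gene held as many. Over all desert regions 62.4% were lower and 37.6% higher.

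Longer regions were more often lower. Regions of 1 kb were lower at 52.4%, those of 1.6 to 3 kb at 70.2%, and those of 6 kb or more at 97.8% (44 of 45). By distance to the nearest protein-coding gene, regions less than 100 kb away were lower at 77.1%, those 100 to 500 kb away at 68.1%, those 500 kb to 1 Mb away at 58.7%, and those at least 1 Mb away at 45.1%, while those that overlapped a gene were at 61.5%. These are shares in the authors' deposited table. The table lists hardly any region without a difference, so they say nothing of desert sequence that is not listed. Mostly higher regions on chromosome 1 lay up to 1903 kb from Cntnap5a, 2137 kb from Cntnap5b, 1904 kb from Dsel and 2130 kb from Cdh20. The part of the block from 100 to 125 Mb in the shares by distance was not tested.

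**Figure D4:**
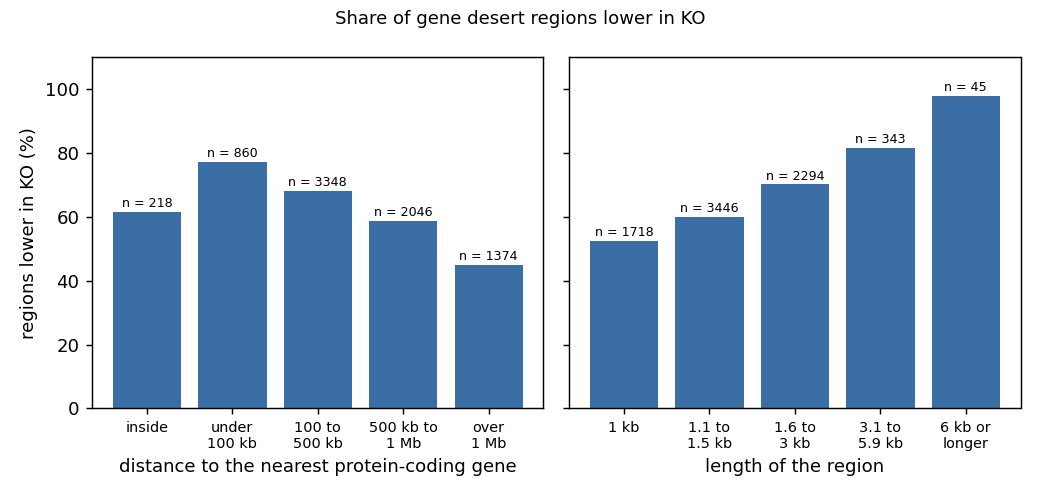
Percent of gene desert regions lower in KO in the authors' deposited table (vertical axis), by distance to the nearest protein-coding gene (left) and by length of the region (right), with the number of regions above each bar. The share falls from 77.1% under 100 kb to 45.1% at 1 Mb and beyond, and rises from 52.4% at 1 kb to 97.8% at 6 kb or more.

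H3K27ac peaks were rare in the deserts and more frequent in KO libraries. In the KO libraries 25, 52 and 19 desert regions had a peak, and in the WT libraries 11, 17 and 14, so that the groups did not overlap. The KO shares were 0.319%, 0.663% and 0.242% of the desert regions and the WT shares 0.140%, 0.217% and 0.178%, against 0.853%, 1.39% and 0.663% (KO) and 0.561%, 0.774% and 0.576% (WT) of all autosomal regions. The number of autosomal peaks did not follow that order, with 25880, 41705 and 11252 in KO and 31354, 36516 and 12111 in WT. The third KO library, with the fewest peaks of all, had more desert regions with a peak than each WT library. In all, 67 desert regions had a peak in some library, 64 of them lower in H3K9me3 (95.5%) and 3 higher, against 896 of 1006 such regions over all autosomal classes (89.1%). A peak was present in KO libraries only at 42 regions (41 lower), in WT libraries only at 3 and in both at 22. Over all autosomal regions the numbers were 479 (457 lower), 123 and 404, so that KO-only regions made up 62.7% of the desert regions with a peak and 47.6% of all such regions. Without the second KO library the 67 fell to 42. Among libraries that share the first number of their titles, whose meaning the labels do not give, the KO library with 25 stands beside the WT library with 11, and the KO libraries with 52 and 19 beside the WT libraries with 17 and 14.

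**Figure D5:**
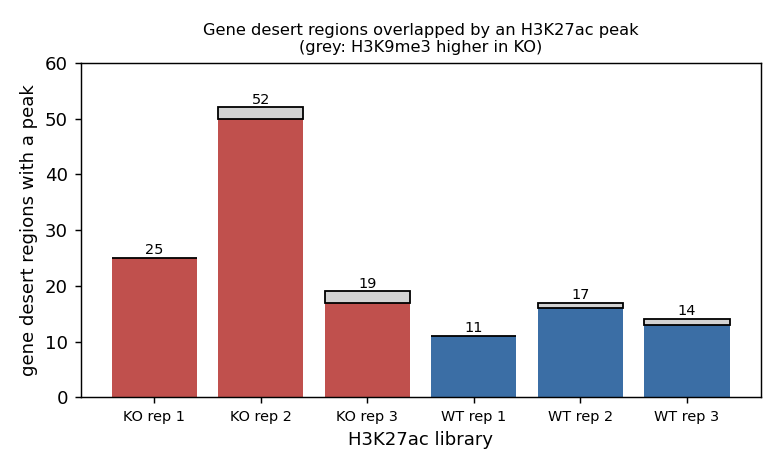
Number of gene desert regions with at least 1 bp under an H3K27ac peak in each library (vertical axis; KO red, WT blue), with regions of higher H3K9me3 in grey on top. The KO libraries have 25, 52 and 19 and the WT libraries 11, 17 and 14, and nearly all of these regions are lower in H3K9me3.

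At 9 desert regions at least 2 KO libraries and no WT library had a peak, and all 9 were lower in H3K9me3 (limma called 6). Over all autosomal regions there were 91 such regions, 88 of them lower and 48 called by limma. At least 2 WT libraries and no KO library had a peak at 0 desert regions and at 9 of all autosomal regions. These regions were singled out after their values were seen. The region on chromosome 4 from 39382801 to 39390700, which holds the start of LOC115486431 printed above, had a peak in all 3 KO libraries. Its H3K9me3 values were 79.0, 134 and 203 in KO and 381, 366 and 446 in WT, a log2 fold change of -1.61 ± 0.34 (SE; limma adjusted p = 0.0471). On the -log10 scale, q of the peak with the highest fold was 3.22, 7.37 and 2.18 in the 3 KO libraries. Only the second exceeded 5, the limit of an alternative that used q. None of the peaks of the third KO library in the 9 regions exceeded it (4.59, 2.39 and 2.18). Peaks of 2 KO libraries exceeded it only on chromosomes 9, 10 and 12 and on chromosome 4 from 23261301. The region on chromosome 2 from 94802101 to 94809600, which holds the identical start of Gm46754, had peaks in the first and second KO libraries. Its values were 81.5, 109 and 182 in KO and 358, 394 and 499 in WT, a log2 fold change of -1.81 ± 0.32 (SE; limma adjusted p = 0.0471). There q of the peak with the highest fold was 3.16 in the first and 8.41 in the second KO library, on the same scale. No peak overlapped the printed window itself, and in both regions peaks of the second KO library lay on either side of it, while those of the other KO libraries lay before it only. On chromosome 4 a peak of the second KO library ended 3146 bases before the first base of the window and another began 2647 bases after it. On chromosome 2 the corresponding peaks of that library ended 2824 bases before and began 2486 bases after.

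The other region with a peak in all 3 KO libraries lies on chromosome 4 from 23261301 to 23264400, within Gm38450 and 773 kb from Pou3f2. It had 15.3, 43.6 and 84.1 normalised reads in KO and 145, 153 and 160 in WT, a log2 fold change of -1.96 ± 0.53 (SE; limma adjusted p = 0.0480). The H3K27ac peaks began before the first base of this region, and on the -log10 scale their q was 9.58, 16.4 and 2.39. A region of 7500 bp on chromosome 10 (17316501 to 17324000), 399 kb from Cited2, had peaks in 2 KO libraries and H3K9me3 values of 53.5, 95.9 and 181 in KO and 349, 414 and 418 in WT. A region within Gm31114 on chromosome 9 (90918601 to 90920600), 437 kb from Zic1, had 5.09, 12.2 and 53.0 in KO and 97.5, 85.3 and 102 in WT. The KO values of these regions spread several-fold and stayed below every WT value.

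H3K27ac was present in all 6 libraries at 6 desert regions, all lower in the authors' deposited table, and limma called 1. Over all autosomal regions there were 107, of which 98 were lower and 17 called. The 6 desert regions had a median of 150 normalised reads per kb in WT and 110 in KO, against 39.8 and 26.5 over all desert regions. Their WT means ran from 38.9 to 1391 per kb. That on chromosome 3 (5859401 to 5861700), 281 kb from Pex2, had the highest WT mean of all desert regions, with 739, 1754 and 1377 normalised reads in KO and 2051, 2227 and 5317 in WT (limma adjusted p = 0.0600). The single called region lies on chromosome 12 (25252201 to 25254100), 156 kb from Id2, an inhibitor of helix-loop-helix factors, with 17.8, 27.03 and 42.0 in KO and 74.5, 108.3 and 79.8 in WT (log2 fold change -1.62 ± 0.38, SE; limma adjusted p = 0.0471). Another of the 5 desert regions with the highest WT mean, on chromosome 4 and 450 kb from Tnc (64497001 to 64498900), had a peak in 1 KO library and in no WT library. It had 110, 2427 and 1537 in KO and 133, 2384 and 2203 in WT. Its first listed value was low in both genotypes, and the genotypes overlapped (limma adjusted p = 0.850).

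The pair of similar starts with opposite directions differed less. The region with Gm41479 (chromosome 16, 80292801 to 80295400) had 20.4, 56.2 and 84.9 in KO and 106, 129 and 108.0 in WT (log2 fold change -1.28 ± 0.48, SE; limma adjusted p = 0.0641). The region with Gm46244 (chromosome 1, 113144401 to 113145800, within the stretch between Dsel and Cntnap5a) had 68.8, 59.7 and 60.5 in KO and 37.2, 43.5 and 39.9 in WT (log2 fold change 0.64 ± 0.28, SE; limma adjusted p = 0.0849). The values of the genotypes did not overlap at either region, and neither passed limma.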

How the data were processed

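Each library was made by native ChIP from 100000 nuclei, per the labels' protocols, with 3 animals per genotype and mark and 12 libraries in all. The submitters' processing notes name the build mm10, Bowtie2 (2.3.4.3) and MACS2. No source used here names the tool of the H3K9me3 comparison or says how its values were scaled. The authors deposited for H3K9me3 the group means as a signal, the enrichment as a ratio, log2 fold changes of KO over WT, p-values with adjusted p-values, and the joined normalised values, per the file headers. For H3K27ac the authors deposited a peak list for every library, whose columns hold a score, the fold at the summit, and p and q on the -log10 scale. Only positions, folds and q were used, with q in one alternative and beside single peaks.

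The 3 values per genotype were split and log2(value + 1) was tested with limma 3.58.1 (R 4.3.3, mean-variance trend) over all 50654 regions, KO minus WT, with Benjamini-Hochberg adjustment and a threshold of 0.05. The listed values cannot be tied to animals, so sex could not enter the fit, and genotype is partly mixed with sex. The first number in the titles, which the labels do not explain, is also shared unevenly between the genotypes. Each listed value is 1 animal, per the series' design. Whole reads were recovered (100% of low values within 0.1 reads) for limma-voom, whose calls are an alternative. Overlap with a peak needed 1 bp. Distances are to the nearest protein-coding gene of RefSeq (GRCm38.p6), where any gene had been planned; promoter windows were aligned with Biopython 1.88.

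The members and lists were chosen with earlier results of these data known. Regions were named by fixed rules: the 8 lower and 8 higher with the smallest limma p among those without overlap, the 4 longest in each direction, the 5 with the highest WT mean, up to 12 with H3K27ac in at least 2 libraries, the 5 largest stretches, the 5 most frequent nearest genes in each direction and up to 4 genes per list. Regions with a promoter window, the immunoglobulin loci and the KO-only H3K27ac regions were chosen after their values were seen. So were the blocks on chromosome 1 from 100 to 125 Mb and on chromosome 3 from 20 to 25 Mb. The 335 desert regions on other chromosomes were left out.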

Additional observations from a re-analysis of the deposited data

How the results depend on the processing

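The main limma counts were 771 lower and 153 higher. They were 1863 and 527 with a pseudocount of 5, 3775 and 1756 at an adjusted p of 0.1, 3707 and 1398 with limma-voom, and 187 and 2887 under median-ratio scaling. With autosomes only in the fit 231 were higher. Without the mean-variance trend limma called 0 and 0, with 2933 and 1451 at an unadjusted p of 0.05. Leaving out 1 listed value gave 0 to 4100 lower and 0 to 561 higher, with 0 in each case except without the third KO value. With limma-voom, a leave-one-out chosen after seeing the data, the ranges were 987 to 4031 and 424 to 1892. The median log2 fold change of the limma fits ran from -0.57 to -0.96 in the leave-one-out (-0.37 with limma-voom without the second KO value) and was 0.0006 under median-ratio scaling. With an absolute log2 fold change of at least 1 in the authors' deposited table, 2558 regions were lower and 984 higher. The same kind of test on rescaled values gave 1875 lower and 3130 higher regions. For H3K27ac, leaving out 1 library gave 42 to 67 regions. Without Igh and Igk, left out after seeing the data, the counts in each direction stayed within 1.5 times those with them.

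Under median-ratio scaling 980 of the 7846 desert regions turned from below to above 0 and 0 the other way, while leaving out 1 listed value turned 1 to 10 upward and 0 to 4 downward. In that scaling the sign of the log2 fold change turned for the largest lower stretch on chromosome 12 (0.1711) and for 5 of 48 named regions, which start on chromosome 12 at 22917601 (0.0571) and 23119201 (0.0106), on chromosome 16 at 86820101 (0.4625), on chromosome 4 at 64497001 (0.5715) and on chromosome 6 at 103314601 (0.77). In the leave-one-out fits only the last 2 turned, with ranges of -1.6224 to 1.1193 and -0.6788 to 0.3466. The cause was not tested. Of the 48, only 31 passed limma in the main fit. All 31 lost that call when any listed value but the third KO value was left out and without the mean-variance trend. Under median-ratio scaling 8 of them lost it, besides the region at 23119201, whose sign turned. No paired analysis was possible because the listed H3K9me3 values are not tied to animals and the H3K27ac counts come from no test. Depth limits the first KO value most, at a median of 12 reads per desert region.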
